A study of Homo sapiens with 4 samples.

Results

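TALE homeobox genes encode transcription factors whose homeodomain carries a three-amino-acid loop extension, and the 9 followed here are MEIS1, MEIS2 and MEIS3, PBX2, PBX3 and PBX4, PKNOX1 and PKNOX2 (also called PREP1 and PREP2), and TGIF1. They were taken by gene symbol from the 58037 rows of the count table, with each symbol matched to its Ensembl identifier, and all 9 were found. The RNA came from the OCI-AML3 line, which is established from human AML and carries heterozygous NPM1 and DNMT3A mutations and a homozygous NRAS mutation. The cells had been transfected 72 hours (3 days) earlier with sgRNA Ctrl, labelled sgNeg, or with sgNPM1A, a guide directed at the mutant NPM1 (mtNPM1) allele, and there were 2 libraries per condition. All 4 libraries come from this one line, the labels and methods name no selected clone, and a gene count sums the mutant and the wild-type allele. Protein, chromatin and QPCR measurements were not analysed here.

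MEIS and PKNOX proteins bind DNA together with PBX proteins, and MEIS and PBX proteins also partner with HOX proteins, whose choice of sites they sharpen. In AML with mtNPM1, HOXA9 and its cofactors MEIS1 and PBX3 are known as part of a stem-cell-like program that depends on the menin-MLL1 complex. TGIF1 shares the TALE homeodomain but acts as a corepressor, among others in TGF-beta signalling through SMAD proteins. The comparison of sgNPM1A with sgRNA Ctrl asks how the mRNA of these genes changed with mtNPM1 KO.

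Total counts per library lay between 25069484 and 28276391, and 15718 genes passed edgeR's filter on low counts. NPM1 itself, the targeted gene, had 1319 and 1385 CPM (each count over the library's total, scaled by TMM) with sgRNA Ctrl against 1189 and 1132 CPM with sgNPM1A, which edgeR put at -0.22 on the log2 scale (adjusted p = 0.036, standard error 0.069). Since the count sums both alleles, it does not measure editing of the mutant one. The 7 myeloid leukemia markers examined were all expressed. Of these, 5 were called higher (by the rule given below), beside 10.5% of all tested genes. LYZ (lysozyme) rose most with a log2 fold change of 3.63, followed by MPO (myeloperoxidase) with 1.77 and CSF3R (the G-CSF receptor) with 1.40. The summed level of the 7 markers was 1991 and 2000 CPM with sgRNA Ctrl and 5092 and 5807 CPM with sgNPM1A. Most of this rise was LYZ, which went from 271 and 215 to 2643 and 3367 CPM. CD33 and CEBPA, with log2 fold changes of 0.063 and 0.039, were not called. Of 12 markers of other cell types 8 had at most 5 counts in every library, with the B-cell gene MS4A1, the T-cell genes CD3E and CD3D, HBB and EPCAM at 0. The collagen gene COL1A2 was expressed and fell from 27.5 and 28.6 to 13 and 9.33 CPM (edgeR, adjusted p = 3.11e-05), and made up most of the list's summed level, 29.7 and 30.3 CPM against 14.5 and 11.2 CPM. The part of these marker shifts in the changes of the TALE genes was not tested. In bulk RNA, fewer cells that express a gene and less RNA of it per cell cannot be told apart.

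With mtNPM1 KO, MEIS1, PBX3 and PKNOX1 mRNA fell, by 5.49-fold, 1.51-fold and 1.33-fold. The other members that could be tested, MEIS2, MEIS3, PBX2, PBX4 and TGIF1, were not called in either direction, and PKNOX2 was close to 0 in every library. A gene was called at an adjusted p under 0.05 (edgeR's quasi-likelihood F test, Benjamini-Hochberg over all tested genes) and a level in one condition at least 25% above that in the other. Of the 9 members 8 were tested, of which 3 were called lower, beside 10.3% of all tested genes. Of the 8 members 0 were called higher by edgeR, beside 10.5% of all tested genes, and also 0 by DESeq2 and limma-trend, while 1 member (MEIS2) passed at an unadjusted p under 0.05. The median log2 fold change of the 8 was -0.20 and that of all tested genes 0.00018, with 6 members negative and 2 positive. The libraries of the conditions did not overlap in 5 of the 8, with 4 lower (beside 31.7% of all tested genes) and 1 higher (beside 31.4%), so separation of 2 libraries from 2 is by itself common in these data.

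**Figure D1:**
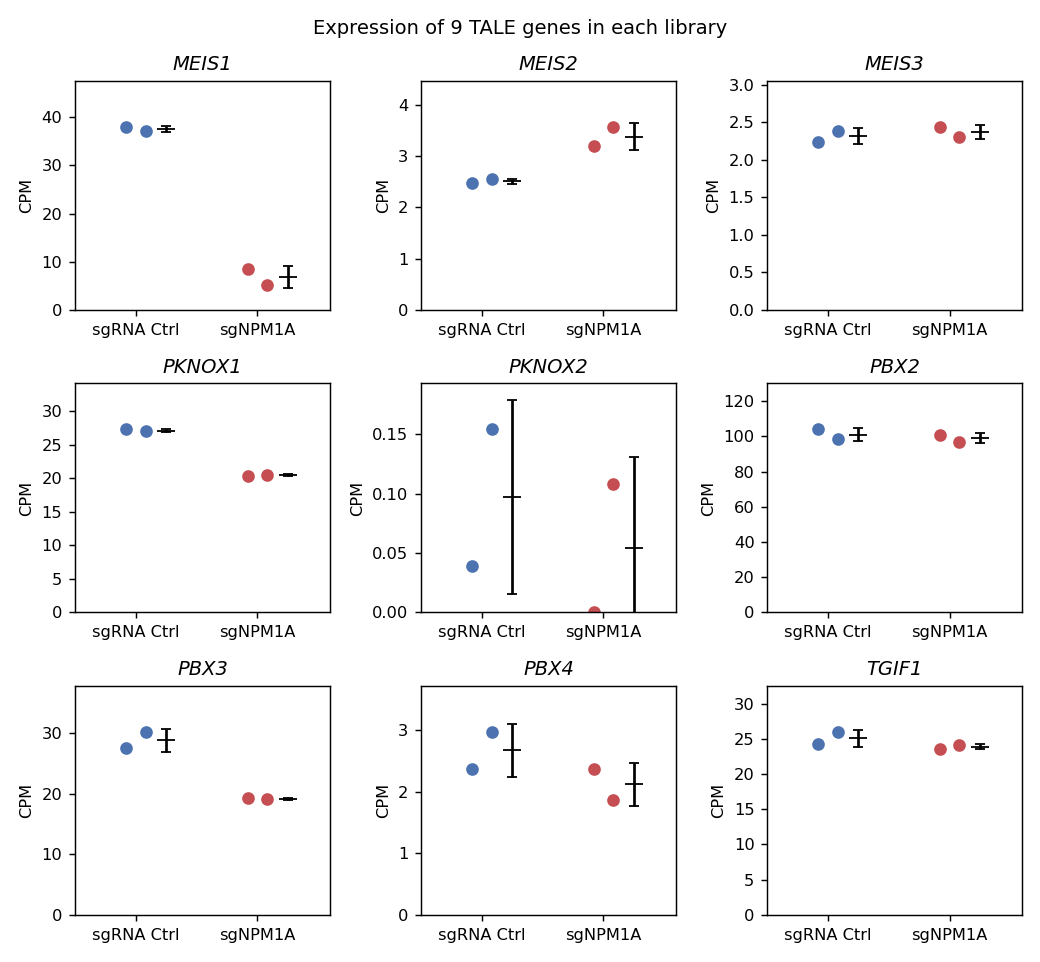
CPM of each of the 9 TALE genes in each library, as blue points for sgRNA Ctrl and red points for sgNPM1A, with the mean and SD (n = 2 libraries) beside them in black; each panel has its own linear axis from 0. MEIS1 drops from 38.0 and 37.2 CPM to 8.43 and 5.26 CPM, PBX3 and PKNOX1 drop less, and the points of MEIS3, PBX2 and PBX4 overlap between the conditions.

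MEIS1, the cofactor of HOXA9 best known as a leukemia gene, lies on chromosome 2 of GRCh38 from 66435125 to 66573869 on the forward strand. It had 967 and 963 counts with sgRNA Ctrl and 235 and 146 counts with sgNPM1A, or 38.0 and 37.2 CPM against 8.43 and 5.26 CPM. The sgRNA Ctrl libraries were nearly equal, and both sgNPM1A libraries lay far below them. The means were 37.6 ± 0.607 and 6.84 ± 2.24 CPM (SD over the 2 libraries of a condition), which edgeR put at -2.46 on the log2 scale (95% interval -2.81 to -2.11, adjusted p = 1.13e-06, standard error 0.16). Ordered from the strongest fall, MEIS1 ranked 81 of the 15718 tested genes. Within sgNPM1A the libraries differed by more than counting error, since the exact Poisson 95% intervals of the CPM, 7.39 to 9.58 and 4.44 to 6.18, do not meet. Fits without one of the libraries put MEIS1 between -2.83 and -2.15. Of the 50-base words in MEIS1 transcripts 11.5% also occur in its antisense gene MEIS1-AS2, which had 4 and 3 counts with sgRNA Ctrl and 2 and 1 with sgNPM1A. The sources used here do not state whether reads were counted by strand, so reads from the shared bases cannot be assigned to either gene.

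PBX3, the PBX member most often linked with HOXA9 in leukemia, lies on chromosome 9 from 125747373 to 125967377 on the forward strand. It had 698 and 781 counts with sgRNA Ctrl and 535 and 529 with sgNPM1A, or 27.5 and 30.2 CPM against 19.2 and 19.1 CPM. The libraries of the conditions did not overlap, and the sgNPM1A libraries were nearly equal. The means were 28.8 ± 1.91 and 19.1 ± 0.1 CPM (SD, n = 2), which edgeR put at -0.59 on the log2 scale (95% interval -0.80 to -0.39, adjusted p = 0.000756, standard error 0.093). PKNOX1, a broadly expressed PBX partner, lies on chromosome 21 from 42974562 to 43033931 on the forward strand. It had 694 and 699 counts with sgRNA Ctrl and 568 and 570 with sgNPM1A, or 27.3 and 27.0 CPM against 20.4 and 20.5 CPM. Replicates differed little in either condition, and all sgNPM1A values lay below all sgRNA Ctrl values. The means were 27.1 ± 0.221 and 20.5 ± 0.107 CPM (SD, n = 2), and edgeR put PKNOX1 at -0.41 on the log2 scale (95% interval -0.60 to -0.21, adjusted p = 0.00567, standard error 0.088). Over all refits its adjusted p reached at most 0.0497 (edgeR, without the first sgNPM1A library), and that of PBX3 at most 0.00602.

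MEIS1, PBX3 and PKNOX1 are the members that fell together, so the 250 bases before their RefSeq start sites (GRCh38.p14, in the direction of transcription) are shown. The letters searched on both strands were TGACAG, the core that MEIS, PKNOX and TGIF proteins recognize, TGATNNAT, a form of the joint PBX-HOX site, and CCAAT, a common promoter box. Capitals mark a match to any of them. Of 35114 RefSeq promoter windows cut to the same 250 bases, 13% hold TGACAG, 6.47% TGATNNAT and 32% CCAAT.
MEIS1, chr2:66434875-66435124, plus strand: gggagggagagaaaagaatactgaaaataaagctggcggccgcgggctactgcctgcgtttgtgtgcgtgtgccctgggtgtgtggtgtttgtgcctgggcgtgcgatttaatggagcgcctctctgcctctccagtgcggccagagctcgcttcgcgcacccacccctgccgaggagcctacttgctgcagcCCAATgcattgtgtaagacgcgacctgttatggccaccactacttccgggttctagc
PBX3, chr9:125747933-125748182, plus strand: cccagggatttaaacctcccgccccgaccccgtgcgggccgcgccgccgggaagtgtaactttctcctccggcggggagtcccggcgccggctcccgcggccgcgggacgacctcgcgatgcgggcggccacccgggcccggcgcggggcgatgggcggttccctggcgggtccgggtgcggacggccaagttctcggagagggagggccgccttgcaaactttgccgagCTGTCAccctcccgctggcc
PKNOX1, chr21:42974312-42974561, plus strand: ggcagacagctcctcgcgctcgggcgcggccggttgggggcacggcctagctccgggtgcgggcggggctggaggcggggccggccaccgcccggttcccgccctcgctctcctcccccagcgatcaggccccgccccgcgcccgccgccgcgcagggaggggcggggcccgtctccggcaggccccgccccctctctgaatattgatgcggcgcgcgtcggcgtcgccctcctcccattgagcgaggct
The MEIS1 window holds a CCAAT box that begins 57 bases before the start site and no match to the other letters. The PBX3 window belongs to a start site downstream of the gene's first annotated base, and holds TGACAG on the reverse strand, beginning 20 bases before the start site, and the PKNOX1 window holds none of the letters searched. GC made up 59.6%, 75.6% and 79.2% of the bases. These are matches of letters in short windows, and no binding was measured here. MEIS2, the member that was highest relative to its controls but was not called, has 2 windows. The first holds none of the letters searched. The second holds TGATTTAT, a match to TGATNNAT, beginning 64 bases before the start and overlapping a reverse CCAAT box. TGIF1, also not called, holds matches to TGATNNAT in its windows 2 and 7 and to TGACAG in its windows 2 and 6. Whether such matches go with the direction of change was not tested.
MEIS2, chr15:37098697-37098946, minus strand: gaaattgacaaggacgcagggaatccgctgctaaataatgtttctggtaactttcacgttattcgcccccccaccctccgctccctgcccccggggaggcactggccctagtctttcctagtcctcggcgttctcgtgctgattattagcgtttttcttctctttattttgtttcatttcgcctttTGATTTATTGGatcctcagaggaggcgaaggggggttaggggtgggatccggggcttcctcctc

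MEIS2 (chromosome 15, 36889204 to 37101311, reverse strand) and MEIS3 (chromosome 19, 47403124 to 47422233, reverse strand), close paralogs of MEIS1, were not called. MEIS2 had 63 and 66 counts with sgRNA Ctrl and 89 and 99 with sgNPM1A, or 2.48 and 2.55 CPM against 3.19 and 3.57 CPM. Both sgNPM1A libraries were above both sgRNA Ctrl libraries, yet the log2 fold change of 0.43 (95% interval 0.02 to 0.83) had an adjusted p of 0.116 (edgeR; unadjusted p = 0.0415) and was not called. The exact Poisson interval of sgRNA Ctrl 1, 1.90 to 3.17 CPM, meets that of sgNPM1A 2, 2.90 to 4.34 CPM. MEIS3 had 57 and 62 counts against 68 and 64, or 2.24 and 2.39 CPM against 2.44 and 2.30 CPM. Its libraries overlapped between conditions, and the log2 fold change was 0.033 (95% interval -0.41 to 0.47, adjusted p = 0.926, edgeR). That interval holds a change as large as the fall of PKNOX1, so at this depth one of that size was not detectable in MEIS3. The pseudogene MEIS3P1 is among the genes in which 3.17% of the 50-base words of MEIS3 recur, and had 103 and 67 counts with sgRNA Ctrl and 110 and 134 with sgNPM1A.

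PBX2 (chromosome 6, 32184733 to 32190202, reverse strand), the most abundant PBX gene here, had 2644 and 2550 counts with sgRNA Ctrl and 2819 and 2688 with sgNPM1A, or 104 and 98.5 CPM against 101 and 96.8 CPM. The values interleaved between conditions, with a log2 fold change of -0.033 (95% interval -0.19 to 0.12, adjusted p = 0.775, edgeR). This interval lies inside the fold threshold in both directions. Of the 50-base words of PBX2, 26.3% occur in other genes, namely the pseudogene PBX2P1, which had between 2 and 5 counts, and a gene that overlaps it on the same strand, so part of its count is uncertain. PBX4 (chromosome 19, 19561713 to 19618687, reverse strand) had 60 and 77 counts against 66 and 52, or 2.36 and 2.97 CPM against 2.37 and 1.87 CPM. The log2 fold change of PBX4 was -0.33 (95% interval -0.82 to 0.15, adjusted p = 0.308, edgeR), with overlapping libraries and an interval that runs from a fall larger than that of PBX3 to a small rise.

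TGIF1, the SMAD corepressor (chromosome 18, 3412009 to 3459978, forward strand), had 617 and 673 counts with sgRNA Ctrl and 658 and 670 with sgNPM1A, or 24.3 and 26.0 CPM against 23.6 and 24.1 CPM. Its sgNPM1A libraries lay just below both controls, with a log2 fold change of -0.074 (95% interval -0.27 to 0.12, adjusted p = 0.593, edgeR), an interval inside the fold threshold in both directions. PKNOX2 had 1 and 4 counts with sgRNA Ctrl and 0 and 3 with sgNPM1A, where 3 counts correspond to between 0.108 and 0.118 CPM, and it was not tested. All of its values are at or near the limit that a count of 0 allows.

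**Figure D2:**
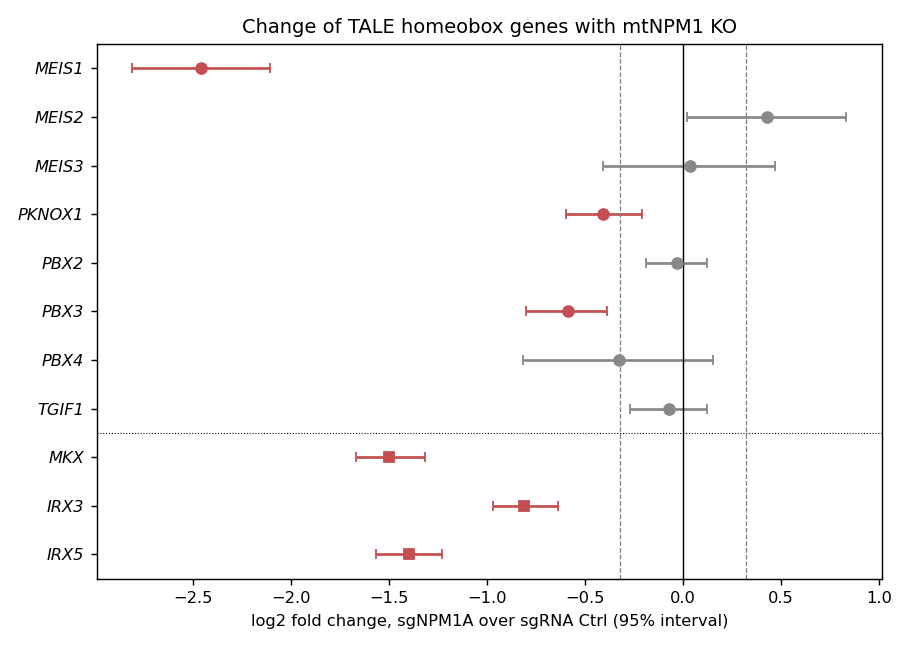
Log2 fold change of sgNPM1A over sgRNA Ctrl with its 95% interval (edgeR, 2 libraries per condition) for the 8 tested members as circles above the dotted line, and for the 3 called genes among the other TALE homeobox genes as squares below it; red marks called genes, grey the rest, and dashed lines the fold threshold. MEIS1 at -2.46 stands far to the left of the other members, and the intervals of PBX2 and TGIF1 lie within the dashed lines.

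**Figure D3:**
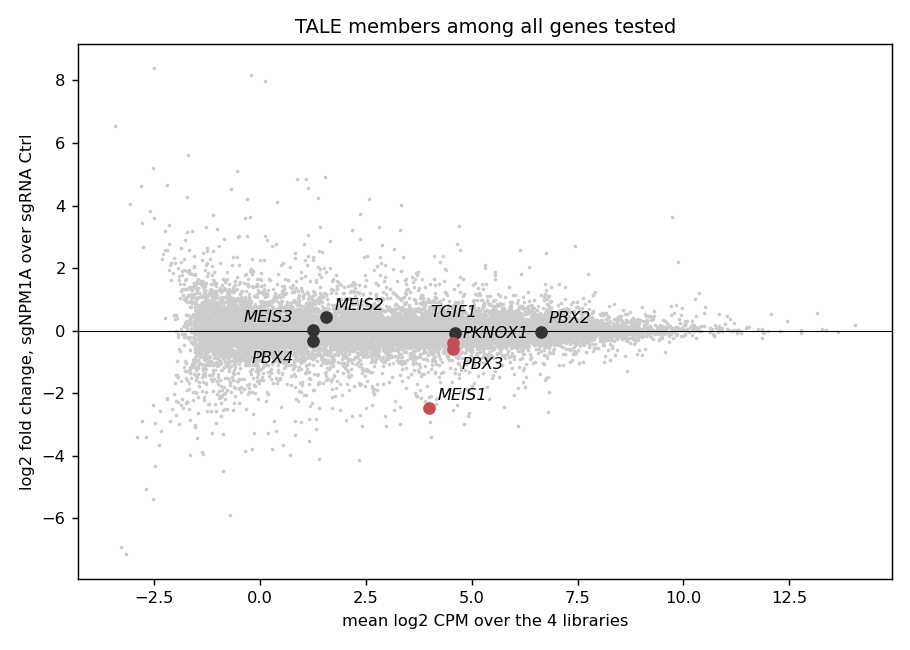
Log2 fold change of sgNPM1A over sgRNA Ctrl against mean log2 CPM over the 4 libraries for all 15718 tested genes in grey, with the 8 tested members marked, called ones in red. MEIS1 at -2.46 lies far below the centre of the cloud, PBX3 and PKNOX1 at -0.59 and -0.41 lie nearer to it, and MEIS2, MEIS3 and PBX4 are the members with low counts.

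For levels compared between genes, CPM were divided by the length of a gene's exons in kb. With sgRNA Ctrl the order from the highest was PBX2 with 23.2 ± 0.899 CPM per kb (SD, n = 2), PBX3 with 5.87 ± 0.389, PKNOX1 with 3.56 ± 0.029, MEIS1 with 3.44 ± 0.0555, TGIF1 with 3.09 ± 0.149, PBX4 with 1.14 ± 0.186, MEIS3 with 0.452 ± 0.0209, MEIS2 with 0.211 ± 0.00416 and PKNOX2 with 0.0148 ± 0.0124. The library values of neighbours in this order did not overlap, with PKNOX1 and MEIS1 the closest. That comparison leaves out counting error, here and with sgNPM1A, and the order rests on the exon lengths used. With sgNPM1A, MEIS1 stood below PBX4, at 0.626 ± 0.205 against 0.91 ± 0.15 CPM per kb, and TGIF1 with 2.94 ± 0.0456 was above PKNOX1 with 2.68 ± 0.014. MEIS1 and MEIS3 (0.463 ± 0.0186) then differed by less than the SD of MEIS1.

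The make-up of MEIS mRNA differed between the conditions. MEIS1 was 84.3% and 83.3% of the summed CPM per kb of the 3 MEIS genes in the sgRNA Ctrl libraries, and 50.9% and 39.1% in the sgNPM1A libraries. The sum itself went from 4.12 and 4.08 to 1.51 and 1.23 CPM per kb. In the last library MEIS3, at 36.6%, was close to MEIS1, although MEIS3 had about the same CPM in all libraries. The PBX sum went from 30.4 and 30.0 to 28.1 and 26.9 CPM per kb, and PBX2 held between 75.2% and 82.5% of it in every library. The percentages assume that all annotated exons of a gene are used.

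**Figure D4:**
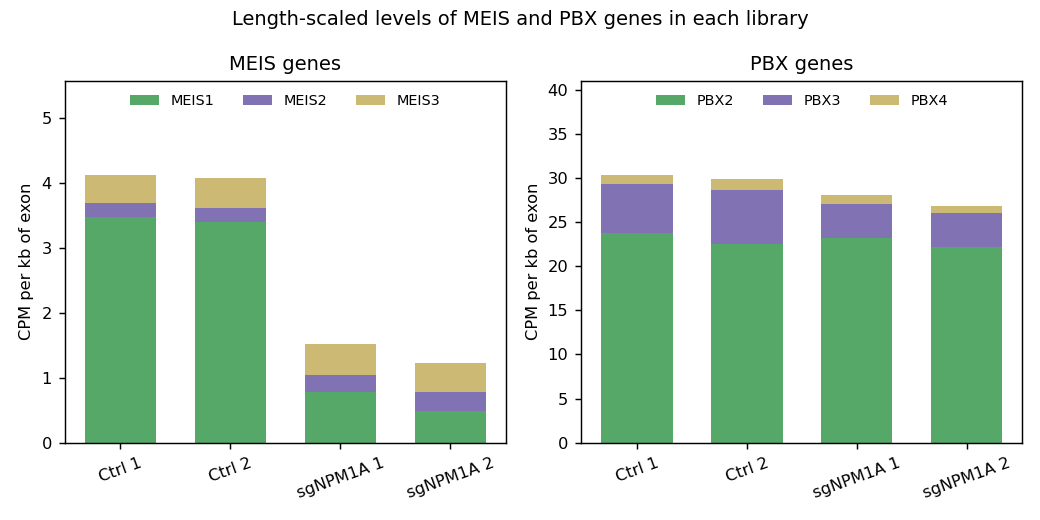
CPM per kb of exon of the MEIS genes (left) and PBX genes (right) in each of the 4 libraries, stacked by gene on linear axes from 0, Ctrl standing for sgRNA Ctrl. The MEIS1 segment shrinks from 3.48 and 3.40 to 0.771 and 0.481 CPM per kb, while the PBX2 segment stays between 22.2 and 23.8 CPM per kb.

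Ratios of counts within a library do not depend on scaling between libraries, and were used to set members side by side. The ratio of MEIS1 to MEIS2 counts was 15.3 and 14.6 with sgRNA Ctrl and 2.64 and 1.47 with sgNPM1A. That of MEIS1 to PBX3 was 1.39 and 1.23 against 0.439 and 0.276, and that of PBX3 to PBX2 was 0.264 and 0.306 against 0.190 and 0.197. In each of these pairs the conditions did not overlap, with the first gene lower relative to the second in both sgNPM1A libraries. MEIS1 and PBX3 were already picked as called lower, so this adds no support to their calls. Among single genes, 31.7% of all tested were lower without overlap. HOXA9, the HOX partner of MEIS1 and PBX3, fell from 56.3 and 62.2 to 19.2 and 17.5 CPM, or -1.69 on the log2 scale (edgeR, adjusted p = 3.21e-07). The ratio of MEIS1 to HOXA9 counts was 0.676 and 0.597 against 0.438 and 0.300, while that of PBX3 to HOXA9 counts was 0.488 and 0.484 against 0.998 and 1.09. MEIS1 was thus lower relative to HOXA9 in both sgNPM1A libraries, and PBX3 higher. These ratios carry no test, since the smallest two-sided p of an exact permutation test would be 0.333 here.

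Of 10 further TALE homeobox genes 5 were tested, and 3 of them were called, all lower, beside 10.3% of all tested genes, with a median log2 fold change of -0.81. MKX, which encodes the mohawk homeobox factor known from tendon, went from 136 and 127 to 48.8 and 44.2 CPM (-1.50 on the log2 scale, edgeR, adjusted p = 2.36e-07). The Iroquois gene IRX5 went from 158 and 161 to 64.0 and 57.2 CPM (-1.40 on the log2 scale, edgeR, adjusted p = 3.00e-07). Its neighbour IRX3, an Iroquois gene often expressed in AML, went from 521 and 530 to 319 and 282 CPM (adjusted p = 1.53e-05, edgeR). In these 3 genes, already picked as called lower, the sgNPM1A libraries lay below the controls without overlap, as in 31.7% of all tested genes. TGIF2, the paralog of TGIF1, stood at -0.28 on the log2 scale (edgeR, adjusted p = 0.026), under the fold threshold. IRX1, IRX2, IRX4 and IRX6 had 0 counts in every library. Of 9 antisense, pseudogene and binding-protein genes of the family 2 were tested, MEIS3P1 and PBXIP1, with a median of -0.059, and PBXIP1 was called. PBXIP1, whose protein binds PBX proteins and keeps them from DNA, fell from 46.5 and 49.8 to 35.2 and 31.9 CPM (-0.52 on the log2 scale, edgeR, adjusted p = 0.00106).

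Of 9 HOX genes of paralog groups 9 and 10 with HOXA7 and HOXB7, 5 were tested and called lower, beside 10.3% of all tested genes, with a median log2 fold change of -2.19 and of -1.99 with HOXA7 set to the bound that 3 counts per sgNPM1A library give. HOXB9 went from 115 and 169 counts to 18 and 6 counts (-3.67 on the log2 scale, edgeR, adjusted p = 1.88e-05). HOXA7 had 11 and 11 counts with sgRNA Ctrl and 2 and 0 with sgNPM1A, too few for a fold to be given, and passed the filter on low counts only through sgRNA Ctrl. HOXB9, with 6 counts in the second sgNPM1A library, also passed the filter only through sgRNA Ctrl. The calls of HOXA7 and HOXB9 therefore add no support to the comparison with 10.3%, and both medians include HOXB9 at its fitted -3.67. With at least 10 counts required in every library, which HOXA7 and HOXB9 did not reach, 3 of the HOX genes were called lower. These were HOXA9, HOXB7 and HOXA10, at -1.69, -1.78 and -2.19 on the log2 scale in the main fit. HOXA10 went from 92.2 and 88.5 to 22.4 and 17.4 CPM (-2.19 on the log2 scale, edgeR, adjusted p = 1.65e-07).

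Of 20 genes described as downstream of HOXA9 and MEIS1, 16 were tested, of which 6 were called lower (beside 10.3% of all tested genes), 2 higher (beside 10.5%, a share near theirs) and 8 not called, with a median log2 fold change of -0.24. The strongest falls were those of EPAS1, which encodes the hypoxia factor HIF2-alpha, from 84.0 and 69.8 to 22.8 and 20.9 CPM (log2 fold change -1.82), of MEF2C, a transcription factor of lymphoid and myeloid progenitors, from 74.0 and 78.0 to 28.5 and 24.8 CPM (-1.51), and of SOX4 (-1.47), with adjusted p-values (edgeR) of 4.19e-07, 5.10e-07 and 4.75e-07. FLT3, the receptor tyrosine kinase often mutated in AML, rose from 10.8 and 9.15 to 20.2 and 20.9 CPM (1.04 on the log2 scale, edgeR, adjusted p = 5.73e-05), and the kinase SYK rose from 315 and 294 to 412 and 428 CPM (edgeR, adjusted p = 0.000461). KIT had at most 2 counts in any library.

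Of 16 chromatin regulators known to act at MEIS1 or with its activators, all tested, 1 was called, AFF1, a subunit of elongation complexes (-0.45 on the log2 scale, edgeR, adjusted p = 0.0106). A further 6 passed the adjusted p but stayed under the fold threshold, and the median was -0.13. The count called lower was 4 with scaling by library size only, 2 without the second sgRNA Ctrl library and 3 without the first sgNPM1A library. Of 14 genes of TGIF1 partners and TGF-beta signalling 4 were called, all lower, with a median of -0.22. Among them the inhibitory SMAD7 went from 23.3 and 20.7 to 9.90 and 10.3 CPM (-1.12 on the log2 scale, edgeR, adjusted p = 2.33e-05), the receptor TGFBR1 went from 133 and 122 to 66.8 and 61.8 CPM (-0.99, adjusted p = 3.99e-06, edgeR), and SKIL, a SMAD corepressor, went from 9.36 and 9 to 5.99 and 7.42 CPM (-0.45, adjusted p = 0.0366, edgeR). TGIF1 itself was not called, and without the first sgNPM1A library 2 genes of the list were called lower. Of 10 coregulators of PBX and MEIS proteins 1 was called, the CREB coactivator CRTC3 (-0.34 on the log2 scale, edgeR, adjusted p = 0.0171), and the median was -0.013. That call was lost when one or the other sgNPM1A library was left out, while 3 coregulators were called lower without the second sgRNA Ctrl library, and 1 was called higher without the first sgRNA Ctrl library or the second sgNPM1A library. These shares stand beside 10.3% of all tested genes called lower.

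**Figure D5:**
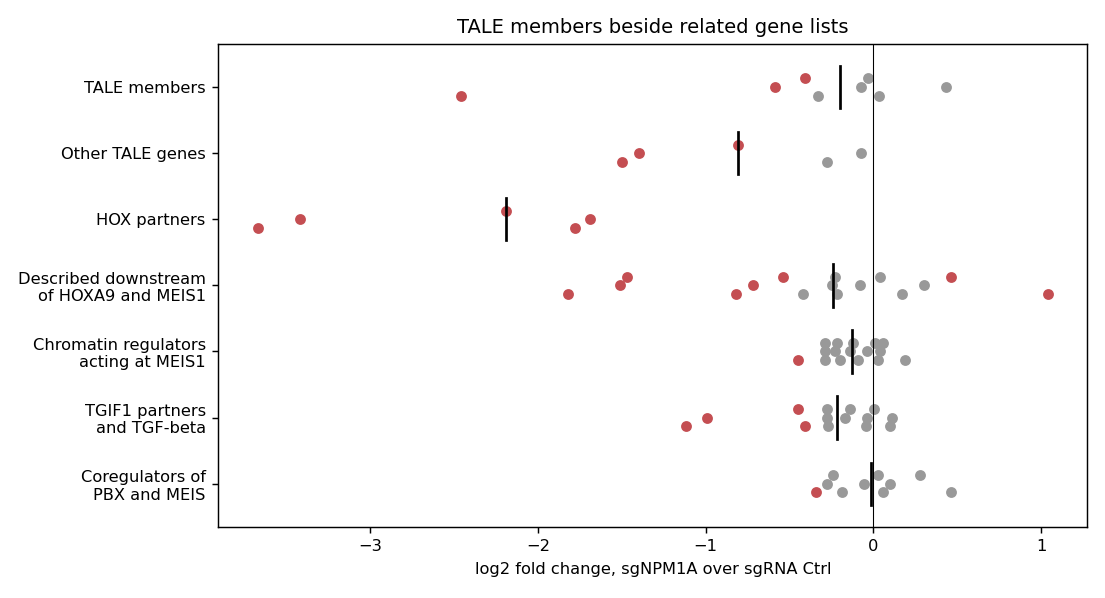
Log2 fold change of sgNPM1A over sgRNA Ctrl for each tested gene of the TALE members and of 6 related lists, red for called genes and grey for the rest, with a black line at each list's median; points are offset vertically for legibility. The HOX partners all lie at or below -1.69, the members reach from -2.46 (MEIS1) to 0.43 (MEIS2), and the coregulators gather around 0. HOXA7 is drawn at its fitted value, though its counts are too few for a fold to be given.

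The genes whose log2 CPM over the 4 libraries, each centred on its own mean, lay nearest to those of a called member were sought among the 10181 tested genes that averaged 5 CPM or more. For MEIS1 they were UNC5B (Euclidean distance 0.094 on the log2 scale), EPHB3 (0.17) and C3orf80 (0.18). UNC5B had 15.0 and 14.0 CPM with sgRNA Ctrl and 3.37 and 2.16 CPM with sgNPM1A, with the second sgNPM1A library below the first, as for MEIS1. For PBX3 they were ANXA2 (0.021), LPXN (0.025) and TTC9C (0.031), and for PKNOX1 IL12RB1 (0.017), TCHP (0.021) and LTBR (0.024). Likeness over 4 libraries in 2 conditions is a description only.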

How the data were processed

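RNA-Seq gene counts of 4 OCI-AML3 libraries were used, 2 with sgRNA Ctrl and 2 with sgNPM1A, grouped by their labels. Reads were aligned by the authors to hg38 (STAR, Samtools), and the deposited values are raw, unnormalized counts for each Ensembl gene; the counting program, its use of strand and the annotation release are not given in the sources used here. ERCC spike-ins were not used here. The study's own DESeq2 analysis, variance stabilization and quantile normalization came after these counts. Nothing states that the libraries are separate cultures beyond the legend's words for biological replicates, so p-values measure the spread between these libraries.

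Symbols were matched by Ensembl identifier with the version removed. The main fit used edgeR 4.0.16 in R 4.3.3: filterByExpr with a minimum count of 10, TMM, robust dispersions and a two-sided quasi-likelihood F test, adjusted by Benjamini-Hochberg over all tested genes. CPM are TMM-scaled. Standard errors of its fold changes are the absolute log2 fold change divided by the square root of the F statistic. The 95% intervals of fold changes were built from these with the t distribution, so they follow the p-values. Poisson intervals cover counting error only, as does the floor of 3 counts. Exon lengths, transcript words and overlaps come from GENCODE v44 lifted to GRCh37, and positions and promoters from RefSeq on GRCh38. The code was tested on simulated data.

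The 9 members and all lists were chosen with earlier results of these data known. Named genes are the 9 members, NPM1, the 3 nearest genes of each called member, and genes of each list. In a list these are the called genes with the 3 largest absolute log2 fold changes, or, with no call, its least changed gene. HOXA9, HOXB7, FLT3, SYK, KIT, TGIF2, CD33 and CEBPA are named outside this rule, after their values were seen. The same holds for pseudogenes, antisense genes and genes at or near 0. Alternatives were DESeq2 1.42.0, limma-trend (limma 3.58.1) on quantile-normalized log2 CPM, other normalizations, filters and call rules, the replicate block, and leaving out each library; a crossed block was added after the data were seen. Same-numbered libraries share only a number in the labels. One marker gene of the other cell types is not reported here.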

Additional observations from a re-analysis of the deposited data

How the results depend on the processing

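The calls of MEIS1, PBX3 and PKNOX1 held in each of the 14 refits, with log2 fold changes between -2.83 and -2.15, -0.66 and -0.52, and -0.45 and -0.40. MEIS2, PBX4 and TGIF1 kept their direction and stayed uncalled in the same refits. The log2 fold change of MEIS3 changed sign to -0.0074 with library size only, -0.014 without sgRNA Ctrl 1 and -0.0056 without sgNPM1A 1, and that of PBX2 to 0.0065 without sgRNA Ctrl 1 and 0.0014 without sgNPM1A 2, all with adjusted p-values of 0.957 or more. Over the fits without 1 library MEIS3 ranged from -0.014 to 0.082 and PBX2 from -0.071 to 0.0065. A fold threshold of 2 left 498 genes higher and 502 lower, 1 member lower (MEIS1) and 12 called genes in the 7 related lists, in place of 1653, 1619, 3 and 23. Without a fold threshold the lists held 38 called genes, and at an unadjusted p under 0.05 with the fold threshold 1 member, MEIS2, was called higher. Here the construction of the rule sets the count. Leave-one-out fits, in which the lone library is assumed to vary like the other condition, gave between 1224 and 1574 genes higher and between 1166 and 1571 lower.

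The replicate block gave 1637 genes higher and 1604 lower, and 3 members lower as without it. Its adjusted p-values (edgeR) were 1.04e-60 for MEIS1, 0.000117 for PBX3 and 0.0133 for PKNOX1. With a block, few libraries are left to estimate the spread. The value for MEIS1, against 1.13e-06 in the main fit (edgeR), is therefore not read as stronger evidence. Among the coregulators the replicate block gave 1 gene higher and 0 lower, in place of 0 and 1, so that CRTC3 was no longer called. There 1 was also called higher with no filter on low counts and under the crossed block. The labels share only replicate numbers: deviations of same-numbered libraries correlated at -0.112 across the tested genes and at -0.522 across the 8856 of them above a mean of 10 CPM (genes are not independent), and the crossed block gave 1955 and 1918 genes. Counts of 52 to 99 limit what MEIS2, MEIS3 and PBX4 can show.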

Other observations

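The second sgNPM1A library lay below the first in all 5 called HOX partner genes and in 5 of 6 called TALE genes (MEIS1, MKX, IRX3 and IRX5 and PBX3), with median log2 differences of -0.36 and -0.15. Over all 1619 genes called lower it lay below the first in 62.9%, with a median of -0.057, and over all tested genes in 49.2%. Between the sgRNA Ctrl libraries the same medians were 0.14, 0.0044 and -0.0042. Among the HOX genes, HOXA7 had 2 and 0 counts and HOXB9 18 and 6 in the sgNPM1A libraries. Both passed the filter on low counts only through sgRNA Ctrl, so they add no support to the count of 5 or to the median of -0.36. PBX3, at 19.2 and 19.1 CPM with sgNPM1A, was equal within counting error. The order was seen in the data before it was counted, and it was not tested.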
